A study of Homo sapiens with 15 samples.

Results

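JIMT-1 is an established human breast cancer cell line that carries amplified HER2 and responds poorly to the HER2 antibody trastuzumab. The state described here is that of its 4 control libraries, chosen by their titles, which read JIMT-1 followed by CTL, out of 15 libraries in the series. The labels call them the control of the study and the cells HER2+ breast cancer. The cells were grown in DMEM with 10% fetal bovine serum, glutamine, penicillin and streptomycin, and total RNA was isolated from them. The labels name no vehicle, control shRNA or puromycin for these libraries, and they do not say whether the 4 came from separate cultures. The other 11 libraries, of cells treated with a compound or carrying an shRNA, are not described here.

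HER2, the product of ERBB2, is a receptor tyrosine kinase without a known ligand of its own. It pairs with EGFR, ERBB3 or ERBB4 and passes signals to the PI3K and MAPK pathways through adaptors. Breast cancers are grouped by ESR1 and PGR, which encode the oestrogen and progesterone receptors, by HER2, and by the luminal, basal and proliferation genes of the PAM50 set. ERBB2 and its close neighbour GRB7 are usually amplified together.

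All 758 genes of the panel were ranked by the mean of the deposited log2 value over the 4 control libraries. Levels are given below as the deposited normalized linear count, without a further unit, always in the order of libraries 1 to 4, and as mean ± SD (n = 4 libraries). Probes differ in how well they capture their target and the values are not stated to be per length, so the order of genes is an order of assay values and not of transcripts. A gene was counted as above the floor where its mean linear value exceeded 20. That floor was chosen for this description and is not a measured background. With 1 group and no contrast, no p-value is given.

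The library totals were between 1241234 and 1457370 recovered counts, and 523 to 559 genes lay above the floor in a single library. The 10 genes of highest count took 27.0% to 27.6% of each library. By the chi-square of their counts, the 4 libraries fell into 2 close pairs. Divided by its degrees of freedom, the chi-square between the counts was 1.44 for libraries 1 and 2 and 1.14 for libraries 3 and 4, where counting error alone gives 1. Between the pairs the value was 4.67 to 4.80. The Pearson correlation of log2 values across all genes did not show both pairs. It was 0.9925 for libraries 1 and 2, 0.9913 for libraries 3 and 4, and 0.9918 to 0.9921 between the pairs. Of 428 genes with a mean of at least 100, none differed by more than 1.5-fold within a pair, and 7 or 8 did between libraries of different pairs. The labels do not say whether a pair is 1 culture measured again, so an SD over 4 libraries may be partly technical.

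The control cells gave a signal above the floor for 534 of 758 genes, or 70.4%. Counts of list members above the floor are to be read beside that share. Of the panel, 505 genes were above the floor in all 4 libraries, 172 in none and 81 in some. The distribution had a low and a high group. Between 3 and 4 on the log2 scale lay 158 genes, between 5 and 6 lay 39, and between 9 and 10 lay 87. The panel median was 7.49 on the log2 scale, and 201 as a linear value. The linear value exceeded 1000 for 215 genes and 10000 for 28. The genes just above the floor included GZMM at 20.2 and PDGFRB at 20.2, and those just under it CCL8 at 19.9 and IDO1 at 19.7.

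**Figure D1:**
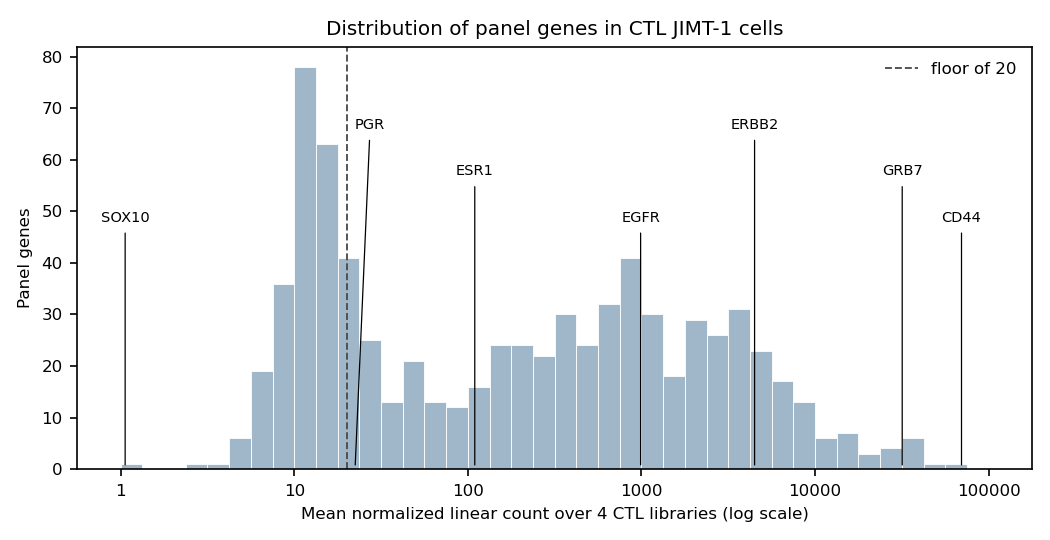
Number of panel genes (vertical axis) by mean normalized linear count over the 4 control libraries (horizontal axis, log scale), with the floor of 20 dashed and 7 genes marked. The genes form a low group around 10 and a broad group above 100, with 534 of 758 to the right of the floor.

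The top of the ranking was held by an adhesion receptor, a translation repressor and cell cycle genes. CD44, the hyaluronan receptor used as a marker of stem-like and mesenchymal breast cancer cells, had the highest value of the panel, at 70828, 70122, 68535 and 69751 (mean 69809 ± 959). EIF4EBP1, which encodes the mTOR target that restrains cap-dependent translation, followed at 57113, 56142, 55238 and 56232. UBE2C, the ubiquitin-conjugating enzyme of the anaphase-promoting complex, came next at 38804, 37649, 38183 and 38309. These genes kept their order in every library.

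Among the 30 highest genes, those of cell division were UBE2C, CDK4, CKS1B, CDK1, CCNB1, TOP2A, FAM83D, RRM2, ANLN and PTTG1. CDK4, the kinase that phosphorylates RB1 in G1, averaged 32166 ± 653, and CDK1, the kinase of mitotic entry, 19977 ± 302. Glycolysis was represented by ENO1 at 31185 ± 599, PGK1 at 27737 ± 107 and ALDOA at 24535 ± 235. The adhesion subunits ITGB1 (integrin beta 1) and ITGA6 (integrin alpha 6) averaged 35540.1 ± 471 and 9990.0 ± 220.3. The remainder of the 30 included CD44, EIF4EBP1, SKP1, HMGA1, GRB7, HLA-B, PFDN2, NSD3, SFN, JUN, FOSL1, FXYD3, PSMB7 and HLA-E. Of the 29 neighbouring pairs in this ranking, 20 stood in the same order in every library. The other pairs exchanged places in at least 1 library, so their order is within the spread.

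The label HER2+ refers to the product of ERBB2. With no other cell line in the series, the values below describe ERBB2 and do not test the label. ERBB2 read 4518, 4534, 4309 and 4579.9 (mean 4485 ± 120.3) and ranked 78 of 758. GRB7, an adaptor that binds HER2, read 32833, 32063, 31002 and 31258 (mean 31789 ± 830.2) and ranked 8. Both were far above the floor in all 4 libraries, where 505 of 758 panel genes were above it. GRB7 was above ERBB2 by 2.83 on the log2 scale (SD 0.0398 of the within-library difference), in 4 of 4 libraries, with the limit on comparing probes given above. In the order of genes along the chromosome in RefSeq, the panel genes next to ERBB2 and GRB7 were MED1, a Mediator subunit gene, at 5233 ± 61.2, and on the far side of GRB7 IKZF3, a lymphoid transcription factor gene, at 6.93 ± 1.63. EIF4EBP1 and NSD3, second and 16th in the ranking, were likewise adjacent among the panel genes, and NSD3, a histone methyltransferase gene, averaged 15774 ± 406.

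Of the other HER family receptors, EGFR was clearly measured and ERBB4 was not. EGFR read 1063, 1009.6, 951 and 933 (mean 989 ± 59.2, rank 219). ERBB4 read 8.04, 6.24, 7.49 and 0.985, under the floor in every library. ERBB2 exceeded EGFR by 2.18 on the log2 scale (SD 0.0860), in 4 of 4 libraries. ERBB3 was not analysed here.

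All of the ERBB ligands measured bind EGFR, and all 3 were above the floor. AREG, which encodes amphiregulin, read 601, 578, 759 and 698 (mean 659 ± 84.4). EGF averaged 225 ± 12.6, and EREG, which encodes epiregulin and also engages ERBB4, 150.3 ± 21.4. Their order, AREG over EGF over EREG, was kept in 4 of 4 libraries. GRB2, the adaptor that links activated receptors to RAS, averaged 2866 ± 89.6.

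The oestrogen and progesterone receptor genes were low. ESR1 read 115, 95.7, 104 and 124 (mean 109.6 ± 12.5, rank 421), above the floor in all 4 libraries and under the panel median of 201. PGR, an oestrogen-induced gene, read 12.6, 22.9, 23.5 and 30.5, which is below the floor in library 1 and above it in the other 3. ESR1 was above PGR in 4 of 4 libraries.

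Of 14 further receptor tyrosine kinases, 9 were above the floor, beside 70.4% of the panel. MET, the receptor for hepatocyte growth factor, read 3268, 3336, 3303 and 3319 (mean 3307 ± 28.7). The fibroblast growth factor receptors followed, FGFR4 at 1134 ± 54.1, FGFR3 at 809 ± 42.3 and FGFR2 at 392 ± 6.73, an order kept in 4 of 4 libraries. IGF1R averaged 345 ± 24.01 and PDGFRA 304 ± 19.6. KIT averaged 12.2 ± 1.38, TEK 10.2 ± 3.05 and KDR 7.71 ± 1.02, all under the floor. The ligand of MET, HGF, was under the floor too, at 7.87 ± 2.51.

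**Figure D2:**
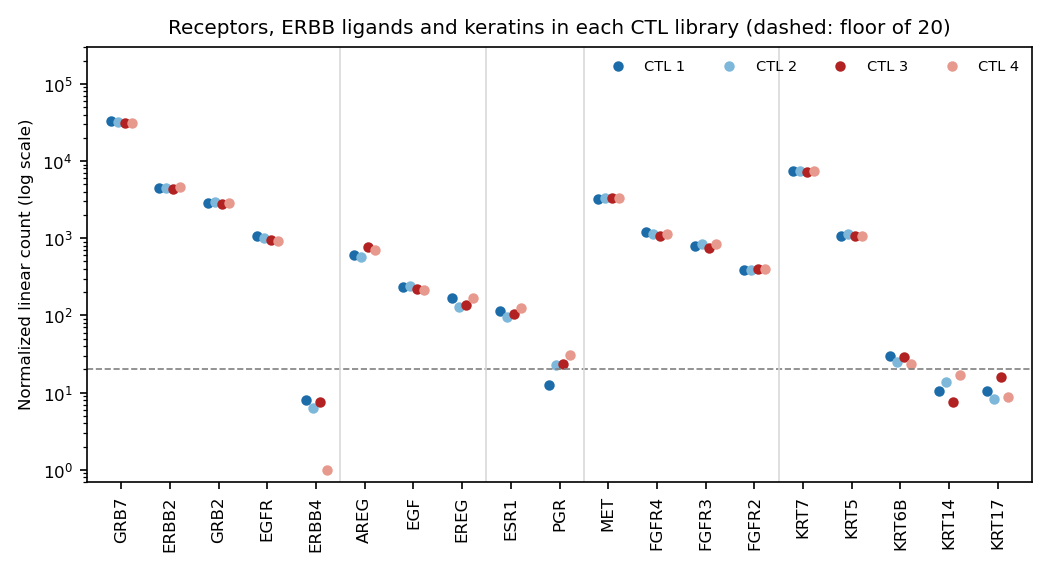
Normalized linear count (vertical axis, log scale) of HER family genes and adaptors, ERBB ligands, hormone receptors, other receptor tyrosine kinases and keratins, 1 point for each of the 4 control libraries, with the floor of 20 dashed. ERBB2 and GRB7 sit at 4309 or above in every library, ESR1 between 95.7 and 124, and ERBB4 below the floor.

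The proliferation genes of PAM50 were measured throughout: 21 of 21 were above the floor, with a median of 3420 against 201 for the panel. They ran from UBE2C at 38236 down to EXO1, a DNA repair exonuclease gene, at 729 ± 19.3. MKI67, which encodes the proliferation antigen Ki-67, read 3543, 3430.2, 3372 and 3333 (mean 3419.6 ± 91.5). BIRC5, which encodes survivin, averaged 8643 ± 46.6, and TYMS, the thymidylate synthase gene targeted by fluorouracil, 4905 ± 85.03. CCNE1, the cyclin partner of CDK2, averaged 4681 ± 65.04.

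The PAM50 genes listed as luminal for this description were split. Another grouping, for example with TMEM45B or FGFR4 placed beside ERBB2 and GRB7, would change the counts. Of 16 measured, 13 were above the floor, beside 70.4% of the panel, with a median of 604. MDM2, the ubiquitin ligase gene of p53, averaged 3653 ± 86.6, BLVRA (biliverdin reductase) 3452 ± 70.9, BAG1 1898 ± 56.2 and CXXC5 1801 ± 67.4. FOXA1, the pioneer factor that opens chromatin for the oestrogen receptor, read 218, 219, 199 and 235. The 3 under the floor were BCL2 at 8.75 ± 3.45, TMEM45B at 12.3 ± 4.44 and MAPT at 17.1 ± 5.03.

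Outside PAM50, only 2 of 10 luminal genes were above the floor, and the list median was 12.3. GATA3, a luminal transcription factor, read 3935, 3969.8, 4177 and 4187 (mean 4067 ± 133), and ANXA9 averaged 283 ± 12.6. Genes of secreted luminal proteins were near the bottom of the ranking, with TFF1 at 8.43 ± 2.59, TFF3 at 5.58 ± 1.37, PIP at 6.62 ± 0.988 and AGR2 at 12.1 ± 2.55. SPDEF, a luminal transcription factor, averaged 9.83 ± 2.48. GATA3 was thus measured at a high value beside low values of several genes that mark the same lineage.

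Basal genes of PAM50 were above the floor for 8 of 11, beside 70.4% of the panel, with a median of 989. MYC read 5493, 5178, 6305 and 6349, CDH3, which encodes P-cadherin, averaged 4837 ± 94.9, SFRP1, a secreted Wnt antagonist, 4648 ± 115, and PHGDH, the entry enzyme of serine synthesis, 2899.6 ± 98.3. FOXC1 averaged 883 ± 37.4. The 3 under the floor were MIA at 17.6 ± 4.28, KRT14 at 12.02 ± 3.99 and KRT17 at 10.9 ± 3.54.

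The keratins ranged as widely. KRT7, a keratin of simple epithelia, read 7479, 7534, 7114 and 7358 (mean 7371 ± 187). KRT5, of basal cells, read 1073, 1126, 1068 and 1082 and KRT6B 29.9, 24.95, 28.9 and 23.6. KRT14, the usual partner of KRT5 in basal cells, read 10.3, 13.5, 7.49 and 16.7, and its order against KRT17 was not kept, with KRT14 higher in 2 of 4 libraries, equal in 1 and lower in 1. KRT8, KRT18 and KRT19 were not analysed here. No subtype was assigned, because PAM50 centroids need a set of tumours on the same scale.

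**Figure D3:**
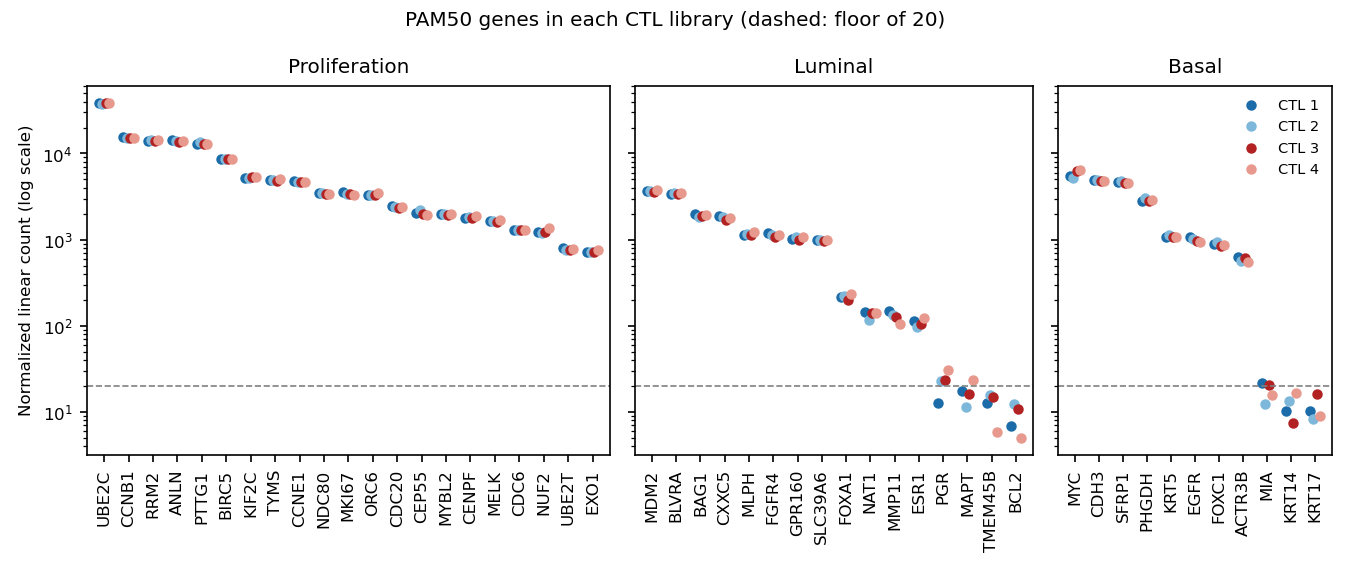
Normalized linear count (vertical axis, log scale) of the PAM50 proliferation, luminal and basal genes, 1 point for each of the 4 control libraries, with the floor of 20 dashed. The points of all 21 proliferation genes lie at 718 or above, while the luminal and basal groups each have 3 genes whose mean is under the floor.

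Epithelial and mesenchymal genes were measured side by side. All 11 epithelial junction and surface genes were above the floor, with a median of 472. CDH1, which encodes E-cadherin, read 6384, 6263, 6161 and 6235 (mean 6261 ± 92.96), the epithelial transcription factor gene ELF3 averaged 6462 ± 135 and CLDN4, a tight junction protein gene, 4314 ± 190.4. The lowest were OCLN (occludin) at 219 ± 14.3 and CLDN3 at 43.9 ± 7.31.

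Of 19 mesenchymal genes, 15 were above the floor, beside 70.4% of the panel, with a median of 697. Behind CD44 came FOSL1, an AP-1 subunit, at 12811 ± 403, CAV1 (caveolin 1) at 9518 ± 169.7 and ITGAV at 5375 ± 91.2. Vimentin, VIM, read 1845, 1852, 1847 and 1769.5 (mean 1828 ± 39.2), and VIM minus CDH1 was -1.78 on the log2 scale (SD 0.0351), negative in every library. Among transcription factors of the epithelial to mesenchymal transition, SNAI1 averaged 3742 ± 216, SNAI2 986 ± 57.8 and TWIST1 138 ± 8.71. ZEB1, at 22.3 ± 2.37, stood just above the floor, and ZEB2, at 13.03 ± 4.88, under it. Also under the floor were FOXC2 at 18.0 ± 5.66 and TWIST2 at 16.4 ± 4.81. CDH2, which encodes N-cadherin, averaged 379.6 ± 30.4.

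Secreted signals were mostly low. Of 19 cytokines and chemokines measured, 8 were above the floor, with a median of 19.1. IL6, an inflammatory cytokine, read 292, 259.9, 505 and 515, and TNF 141, 134, 167 and 172. LIF, a cytokine that shares a receptor subunit with IL6, read 338, 319, 324 and 323. LIF held a narrow range, while IL6 was higher in libraries 3 and 4, so that IL6 exceeded LIF in 2 of 4 libraries. CXCL8, the neutrophil chemoattractant interleukin 8, read 68.96, 89.4, 172 and 182. CCL5 averaged 89.8 ± 7.06, and CCL21, IL1B and CXCL10 averaged 42.7, 41.4 and 28.2. At the bottom were CXCL13 at 6.49 ± 2.91 and IL24 at 5.82 ± 0.503.

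Growth and morphogen factors were above the floor for 25 of 41, beside 70.4% of the panel, with a median of 26.8. SFRP1 was the highest, followed by TGFB1 at 1197 ± 35.2 and TGFB2 at 1015 ± 53.5. TGFB3 averaged 11.6 ± 1.43, under the floor. VEGFA, the angiogenic factor, read 509, 522, 499 and 529, WNT7B averaged 303 ± 14.3 and the inhibin beta subunit gene INHBB 189.8 ± 20.9. The fibroblast growth factors FGF2, at 6.12 ± 1.54, and FGF9, at 6.51 ± 2.63, were the lowest of the list.

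Of 26 secreted proteases, inhibitors and matrix genes, 16 were above the floor, beside 70.4% of the panel. Among genes of laminin chains, which build the basement membrane, LAMB3 averaged 3122 ± 91.4 and LAMA3 1681 ± 63.1. PLAT, the tissue plasminogen activator gene, read 5512, 5506, 5302 and 5378. SLPI, a protease inhibitor gene, averaged 3139.9 ± 127, and SERPINB5, the maspin gene, 2004 ± 53.9. Among the matrix metalloproteinase genes named here, MMP14, of the mesenchymal list and not this one, was highest at 311 ± 14.4. MMP11 averaged 128 ± 17.3, MMP9 24.1 ± 4.69, MMP7 23.9 ± 3.51 and MMP3, under the floor, 13.9 ± 5.61. Stromal matrix genes such as DCN (decorin), COMP and COL11A1 averaged 12.9, 12.1 and 6.23, all under the floor.

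Receptors for such signals were above the floor in 10 of 21 cases. LEPR, the leptin receptor gene, averaged 1085 ± 69.2, the activin receptor gene ACVR1B 899.8 ± 23.1, BMPR1A 769 ± 32.9 and TGFBR2 697 ± 18.7. The lowest of the list were IL2RA at 7.45 ± 5.09 and IL3RA at 4.78 ± 5.05, subunit genes of the interleukin 2 and interleukin 3 receptors.

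Antigen presentation divided by class. All 9 genes of class I presentation were above the floor, with a median of 5523. HLA-B read 22606, 23211, 23150.4 and 22935, HLA-E averaged 9919 ± 110.4, and TAP1, the peptide transporter subunit, 3122 ± 57.2. Only 3 of 8 class II genes were above the floor, HLA-DMA at 301 ± 20.7, HLA-DMB at 34.3 ± 4.12 and HLA-DPA1 at 24.2 ± 2.46. HLA genes are close in sequence, and the probes' ability to tell them apart is not stated in the sources used here.

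Checkpoint ligands were measured on these cells and most lymphocyte receptors were not. CD276, which encodes B7-H3, read 7374, 7129, 6955 and 7129 (mean 7147 ± 172). CD274, which encodes PD-L1, read 431, 412, 447 and 442, and PDCD1LG2, which encodes PD-L2, averaged 151 ± 14.7. PDCD1, the receptor of both, read 43.7, 20.8, 37.5 and 25.6, and TIGIT and CD27 averaged 14.6 and 8.47.

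Genes that mark other cell types were looked at as a control for the culture. Of 12 T, NK and B cell markers 1 was above the floor, CD8A at 56.9 ± 8.21, and the summed value of the list was 174 to 209 in the 4 libraries. Of 8 myeloid and mast cell markers 2 were, CD68, which encodes a lysosomal protein, at 389.6 ± 16.7, and CSF3R at 42.1 ± 9.96. CD163 averaged 5.58 ± 3.52, and the list summed to 469 to 523. Of 11 endothelial markers only MMRN2, at 46.9 ± 4.54, was above the floor, PECAM1 averaged 17.3 ± 4.75, and the list summed to 159 to 204. Of 8 fibroblast markers, PDGFRA and PDGFRB were, PDGFRB at 20.2 ± 4.16, and the list summed to 397 to 457. PPARG, the adipocyte regulator, averaged 4019 ± 86.1, while LPL at 15.1 ± 1.49 and LEP at 7.91 ± 2.13 were under the floor. These counts depend on the floor: at a floor of 10, 11 of 12 lymphocyte, 5 of 8 myeloid and mast cell, 10 of 11 endothelial, 8 of 8 fibroblast and 3 of 4 adipocyte markers were above it. The median of these lists was between 11.2 and 17.7, in the low group of the distribution.

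**Figure D4:**
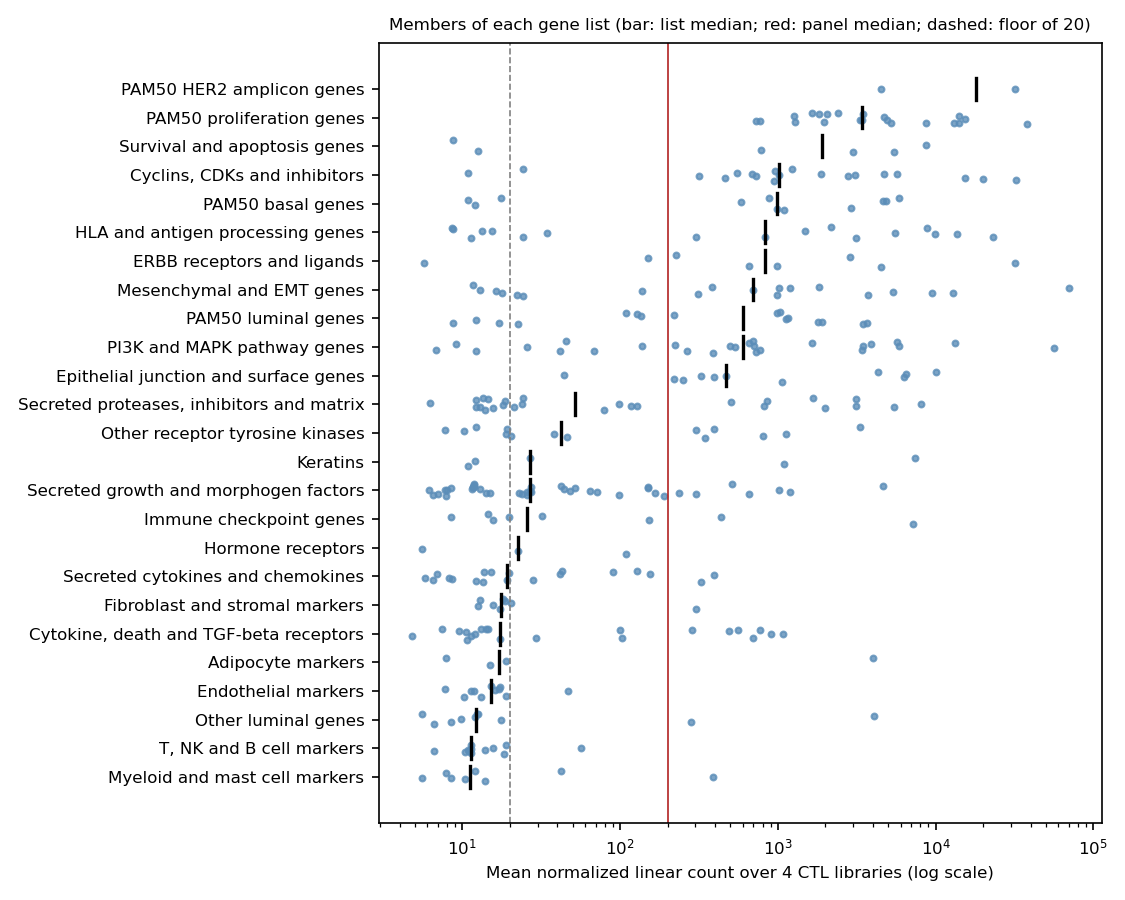
Mean normalized linear count over the 4 control libraries (horizontal axis, log scale) of every measured member of 25 gene lists (rows), with a black bar at each list's median, the panel median of 201 in red and the floor of 20 dashed. The proliferation list lies wholly above the panel median. The lists of lymphocyte, myeloid, endothelial, fibroblast and adipocyte markers have medians under the floor. So do the luminal genes outside PAM50, the cytokines and chemokines, and the cytokine, death and TGF-beta receptors.

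Cell cycle control and survival genes completed the profile. Of 19 cyclins, CDKs and inhibitors, 18 were above the floor. CCND1, the G1 cyclin that activates CDK4, averaged 3095 ± 85.7, whereas CCND2, at 10.8 ± 3.13, was the single member under the floor. CDKN2A, which encodes the CDK4 inhibitor p16 and the MDM2 inhibitor ARF, averaged 2784 ± 42.3, and RB1 961 ± 28.8. Among survival genes BCL2L1, which encodes BCL-xL, averaged 5458 ± 135 and the effector BAX 3014 ± 34.3, while BCL2 and BCL2A1, at 12.6 ± 3.23, were under the floor. In the PI3K and MAPK list, 23 of 26 were above the floor. EIF4EBP1, JUN and MYC were its 3 highest members.

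The lowest values of the panel were at a few counts. The 10 lowest genes included PTGDS, TNFAIP6, CD163, GRIA3, ERBB4, ENPP2, IL3RA, IRX1 and SOX10. SOX10, a transcription factor of neural crest and of some basal-like tumours, had a count of 1 in every library (linear value 1.15, 1.04, 1.07 and 0.985). No gene was listed at 0, since the smallest count in each library was 1. Values under the floor varied more, with a median SD of 0.416 on the log2 scale, against 0.0645 for genes above it, so genes there have no reliable order. For these genes expression was not detectable above a floor of 20 at this depth.

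Above the floor the libraries were close. For genes above 1000 the median coefficient of variation was 2.27%. Of 428 genes with a mean of at least 100, 11 spanned more than 0.5 on the log2 scale. The 10 of largest range were NR4A3, CXCL8, FOS, HES1, IL6, EDN1, SPRY2, JUN, NFKBIZ and DUSP6.

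NR4A3, an orphan nuclear receptor gene induced within the first hours of stimulation, read 118, 113, 336 and 365. FOS, an AP-1 subunit, read 480.4, 469, 951 and 918, and its partner JUN 10478, 10563, 15848 and 16088. HES1, the Notch target repressor gene, read 1807, 1885, 3455 and 3636. In all 10 genes libraries 3 and 4 were above libraries 1 and 2, with no overlap between the pairs. The share of all panel genes without overlap between the pairs, in either direction, was not counted. EDN1, which encodes endothelin 1, read 241, 244, 448 and 444, NFKBIZ, an inducible regulator of NF-kB target genes, 868, 964, 1274 and 1284, and the ERK phosphatase gene DUSP6 336, 313, 451 and 457. SPRY2, a feedback inhibitor of receptor kinases, read 111, 127, 172 and 139.8. The genes were picked by their range over these same libraries, so the shared order is a description. What sets the 2 pairs of libraries apart is not given by the labels and was not tested.

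**Figure D5:**
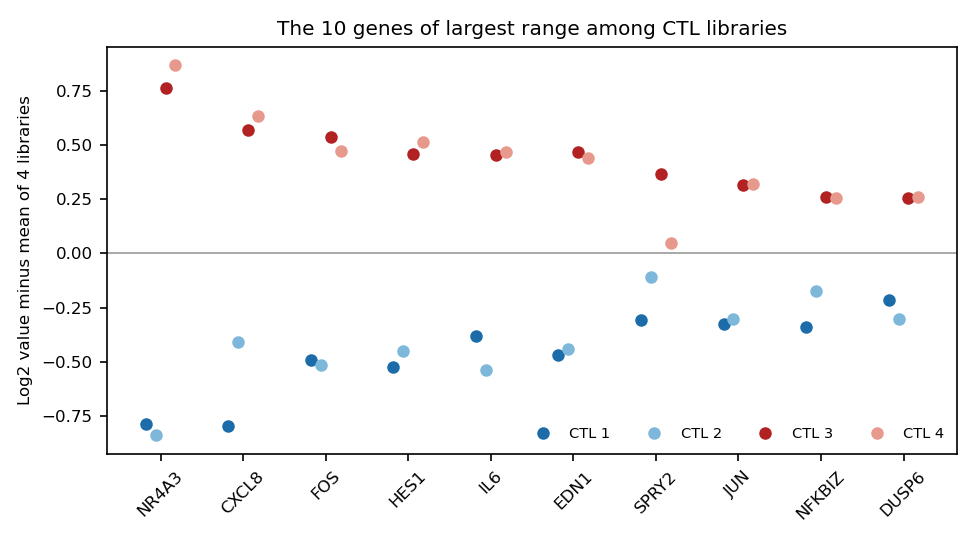
Log2 value minus the mean of the 4 control libraries (vertical axis) for the 10 genes of largest range among those with a mean of at least 100, 1 point per library. Libraries 3 and 4 lie above libraries 1 and 2 for every gene, widest for NR4A3.

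The promoters of 4 of these genes are shown. The values of all 10 genes differed together between the pairs of libraries, so that does not single out these 4. Each window holds 250 bases before and 50 after the RefSeq start (GRCh38.p14). The positions are FOS at chr14:75278578-75278877, plus strand, NR4A3 at chr9:99821635-99821934, plus strand, IL6 at chr7:22726950-22727249, plus strand and CXCL8 at chr4:73740319-73740618, plus strand. Capitals mark matches on either strand to TGACG (the cyclic AMP response element's short form), TGANTCA (AP-1) and TATAAA (the TATA box). They also mark matches to a narrow form of the NF-kB consensus. Sites that depart from that narrow form are not marked.
FOS: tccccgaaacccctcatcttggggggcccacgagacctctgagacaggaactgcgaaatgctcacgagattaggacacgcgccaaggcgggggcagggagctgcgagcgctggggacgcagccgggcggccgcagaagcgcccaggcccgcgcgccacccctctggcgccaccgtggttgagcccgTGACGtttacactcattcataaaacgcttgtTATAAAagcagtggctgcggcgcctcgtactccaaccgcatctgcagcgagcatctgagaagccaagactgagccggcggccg
NR4A3: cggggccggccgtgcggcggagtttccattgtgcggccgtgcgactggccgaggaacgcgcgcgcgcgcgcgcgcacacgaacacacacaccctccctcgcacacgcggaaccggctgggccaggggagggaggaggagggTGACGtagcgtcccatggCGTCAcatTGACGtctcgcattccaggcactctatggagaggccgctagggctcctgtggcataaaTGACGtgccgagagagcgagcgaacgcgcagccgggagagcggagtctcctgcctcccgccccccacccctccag
IL6: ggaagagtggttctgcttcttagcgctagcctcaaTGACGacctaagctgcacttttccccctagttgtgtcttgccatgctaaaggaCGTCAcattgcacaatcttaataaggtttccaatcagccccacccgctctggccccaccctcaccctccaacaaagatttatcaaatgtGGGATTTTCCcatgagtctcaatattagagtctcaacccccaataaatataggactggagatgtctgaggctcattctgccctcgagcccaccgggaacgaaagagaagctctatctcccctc
CXCL8: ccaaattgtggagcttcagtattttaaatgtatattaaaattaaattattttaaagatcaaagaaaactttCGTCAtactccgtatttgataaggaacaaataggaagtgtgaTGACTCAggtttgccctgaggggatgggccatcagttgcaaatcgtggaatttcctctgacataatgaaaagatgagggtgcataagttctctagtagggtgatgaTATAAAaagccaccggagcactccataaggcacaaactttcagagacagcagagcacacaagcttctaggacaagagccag

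The 10 genes had 15 windows in RefSeq. TGACG occurred in 8 of the 15 and in 24.6% of 35116 human windows of the same length. It occurred once in the FOS window, 4 times in NR4A3, in 2 places in IL6 and once in CXCL8. The windows of DUSP6 and NFKBIZ, which are not shown, held none. TGANTCA occurred in 1 window, that of CXCL8, and in 7.71% of all windows. The narrow form of the NF-kB consensus occurred in 2, those of IL6 and NFKBIZ, and in 1.91% of all. The wider consensus was not searched, so a window without a match, such as that of CXCL8, may still hold an NF-kB site. TATAAA occurred in 4, those of CXCL8, EDN1, FOS and NFKBIZ, and in 11.5% of all. The full element TGACGTCA, which contains the short form, occurred in 0 of the 15 and in 1.85% of all. A match of letters describes the sequence and does not show that a factor binds there.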

How the data were processed

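Total RNA from 15 JIMT-1 libraries was measured on a panel of 758 genes. The 4 control libraries were used. Normalized log2 values and normalized linear counts (a signal) were deposited, as 2 blocks of columns per the file headers. How the authors normalized them, and with which software, is not given in the sources used here. Each linear value was a whole number of counts times 1 step of its library, for 100% of values within 0.01 of a count, and the recovered counts gave the depth of 1241234 to 1457370 per library. The deposited log2 values equalled the log2 of the linear block plus 1 constant per library (-0.176, -0.164, -0.132 and -0.148).

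Genes were ranked by mean deposited log2 value, and described as mean ± SD of the linear value. The recovery of counts and the chi-square between libraries were tested on simulated data. A separate ranking by log2 range was tried there too. The range ranking and the 1.5-fold counts reported above were not themselves run on simulated data. Python 3.11.15, numpy 2.4.6, pandas 2.3.3 and matplotlib 3.10.9 were used. Gene names were matched to RefSeq, where 749 symbols were current and 9 older. All 758 genes of the deposited panel were ranked. The 25 gene lists with their members, and the floor of 20, were chosen with earlier results of these data known. Named genes were the 30 highest, the 10 lowest, the 10 of largest log2 range with a mean of at least 100, all ERBB, hormone receptor, PAM50 and keratin genes, and the 4 highest and 2 lowest of every other list. Other genes named in the text, such as VIM, MED1, CCND1 and TFF1, were added after their values were seen or as fixed cell type markers. A few genes the rule names are not reported here. No contrast was fitted and no p-value computed. Counting error only is covered by the chi-square values. Alternatives were other floors, linear means, a pseudocount of 1, medians, averaged pairs and leaving out each library.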

Additional observations from a re-analysis of the deposited data

Results flagged for a closer look

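Of 182 named genes, 6 had a library whose gap to its nearest neighbour, divided by the range of the 4 libraries, exceeded Dixon's 95% critical value for 4 samples. For 4 independent values chance gives about 1 in 20 such groups, and 6 of 182 is a smaller share than that. These libraries form 2 close pairs, so that rate may not hold here. The same count over all 758 panel genes was not made. Library 1 was low for ALDOA, with a ratio of 0.855, and for BLVRA, with 0.867. Library 2 was low for CDK1, with 0.941, and for NAT1, with 0.888. Library 4 was high for FXYD3, with 0.954, and low for ERBB4, with 0.882. ERBB4 was the 1 gene of the 6 below the floor, and its value in library 4 was a single count.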

How the results depend on the processing

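No paired analysis was possible because no groups were compared. The number of genes above the floor, 534, lay between 456 and 694 under other floors, a floor in every library, the log2 block or with 1 library left out. ERBB2 ranked between 77 and 79, and its log2 difference to EGFR between 2.14 and 2.21. The median SD of genes above the floor, 0.0645, was 0.0614 with log2(linear value + 1), 0.115 over all panel genes and 0.0349 with libraries 1 and 2, and 3 and 4, averaged first, and 0.0551 to 0.0617 with 1 library left out. Of 25 lists, 16 had most members above the floor of 20, and 25 did at a floor of 10, against 11 at a floor of 50. The floor thus decides which genes of the low group count as present. With a floor of 10, the count of members above it moved by over 1.5 times in 11 of 25 lists, and with a floor of 50 in 6. With log2(linear value + 1), which also drops the constant between the 2 blocks, the mean log2 of 122 of 182 named genes moved by more than their SD. In alternatives added after seeing the data, dropping the constant alone moved 107 and the pseudocount of 1 alone, on the deposited scale, 4. By this measure medians and leaving out 1 library moved none. Neither can shift a mean of 4 values by more than their SD, so that count decides nothing. Ranks moved by more than their own SD over libraries for 1 of 182 named genes with linear means and 4 with medians. With 1 library left out they moved for 4 to 6. Depth limits the genes under the floor, where 1 library holds about 17 to 20 counts at the floor. Saturation, background and probe efficiency were not measured here.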
